A study of Mus musculus with 9 samples.

Results

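The genes described here encode the machinery of the synaptic vesicle: the SNARE proteins that fuse it with the cell membrane, the synaptotagmins, complexins and syntaxin-binding proteins that control fusion, the proteins of the vesicle itself, and the scaffolds of the active zone. Members were taken by symbol alone, as every gene of the deposited table whose symbol begins with Syt, Vamp, Cplx, Stx, Stxbp, Snap, Rims or Syn followed by a digit, or with Unc13, together with Sv2a, Sv2b, Sv2c, Syp, Sypl, Bsn and Pclo. This gave 71 genes of 14193, in 72 rows of 14194, because Rims1 stands at 2 places. Of the 72 rows, 70 had passed the authors' filter on low values in both conditions and 2 (Stx11 and Unc13d) in 1 condition only.

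At a chemical synapse a v-SNARE on the vesicle (a VAMP) zips together with t-SNAREs on the target membrane (a syntaxin and a SNAP25-type protein), a synaptotagmin senses calcium, and complexin clamps and then helps the final step. Bassoon, piccolo, RIM and Munc13 proteins hold vesicles at the release site and prime them. In the retina, photoreceptors and bipolar cells release from ribbon synapses with their own set of these proteins, amacrine cells release from conventional synapses, and retinal ganglion cells, whose axons form the optic nerve, release in the brain. Other SNAREs work in every cell, in traffic between the Golgi, endosomes, lysosomes and the surface.

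The study asked how the RNA on ribosomes of retinal glia differs after optic nerve crush (ONC), an injury to the axons of ganglion cells. Mice of the labelled genotype Aldhl1l-Cre/Ert2+; NuTRAP+ were induced with tamoxifen, so that cells using the promoter of the astroglial gene Aldh1l1 carried GFP-tagged ribosomes. The RNA held by an antibody against GFP (the positive fraction) was sequenced, and each library pooled 2 retinae. In one eye of each mouse the nerve was clamped for 3 s and tissue was taken 72 h later, while the fellow eye was left alone or given a sham operation, and the labels do not say which. The ONC group holds 5 libraries, of the animal pools 913/986, 914/92, 938/88, 976/978 and 981/982, and the Control group holds 4, of the same pools without 913/986, whose control library was not analysed here. All libraries share the Cre driver, the reporter, tamoxifen and the pulldown, and the age of the mice is not stated in the labels. A single driver limits the model: the pulldown enriches RNA of cells that use it and need not remove all RNA of neurons. All 16 Müller glia markers listed for a check of the labelled fraction were in the table, as were all 17 ganglion cell markers, but the values cannot show how enriched either is. Each value is a normalized log2 value, set to about 0 in the usual control library of that gene, so it holds no absolute level and no depth. Genes can be compared by their difference between groups and not by their level. The replicates are libraries, each from a pool of animals. Unless a block for pool or a test within pools is named, p-values rest on the spread between libraries within each group. The fellow eyes of a pool are then treated as independent.

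Before any result, 2 ONC libraries stand apart. The median of 4 Y-linked genes (Ddx3y, Eif2s3y, Kdm5d and Uty) was -8.02 in ONC 913/986 and -7.92 in ONC 914/92, against -0.17 to 0.13 in the other 3 ONC libraries. In the controls it was -1.18 in Control 914/92 and 0.00 to 0.20 in the rest. The first 2 are called the Y-low ONC libraries below. ONC 914/92 does not match Control 914/92, which carries the same animal numbers, and results are given with and without these libraries where that matters.

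The promoters of the 3 members that passed the test are printed first, because these are the genes on which the report turns. The bases are those from 250 to 31 before the RefSeq gene start in build GRCm38.p6: Vamp1 at chr6:125215331-125215550 on the plus strand, Syt10 at chr15:89841891-89842110 on the minus strand and Cplx1 at chr5:108550058-108550277 on the minus strand. Each is read 5′ to 3′ toward its gene. Capitals mark matches, on either strand, to the GC box (GGGCGG), the CCAAT box (CCAAT) and a core of the cyclic AMP response element (TGACG), none of which contains another.
Vamp1 promoter: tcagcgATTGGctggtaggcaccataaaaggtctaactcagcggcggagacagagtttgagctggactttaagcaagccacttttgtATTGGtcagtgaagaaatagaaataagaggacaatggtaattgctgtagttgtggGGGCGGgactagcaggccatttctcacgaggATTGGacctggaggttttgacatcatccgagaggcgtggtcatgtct
Syt10 promoter: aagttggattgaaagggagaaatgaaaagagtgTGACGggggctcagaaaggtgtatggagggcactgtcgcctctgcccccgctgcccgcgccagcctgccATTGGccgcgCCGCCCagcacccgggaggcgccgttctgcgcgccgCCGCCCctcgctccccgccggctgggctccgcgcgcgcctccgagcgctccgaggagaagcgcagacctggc
Cplx1 promoter: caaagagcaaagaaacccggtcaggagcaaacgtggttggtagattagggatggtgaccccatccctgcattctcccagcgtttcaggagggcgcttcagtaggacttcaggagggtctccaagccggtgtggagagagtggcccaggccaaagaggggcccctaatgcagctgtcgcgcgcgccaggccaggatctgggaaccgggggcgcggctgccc

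The 3 stretches differed in composition. That of Vamp1 was 48.6% G and C with 1 GC box and 3 CCAAT boxes. That of Syt10 was 70.9% G and C and held 2 GC boxes, 1 CCAAT box and 1 response element core. That of Cplx1 was 62.7% G and C and matched none of these letters. No motif of the set was therefore common to the 3. RefSeq promoters were found for 54 of the 71 members, 68 starts in all, of which 40 (58.8%) held a GC box, 20 (29.4%) a CCAAT box and 12 (17.6%) the response element core. Among all 32851 promoters of the same length those shares were 28.5%, 31% and 14.8%. A match is a run of letters and does not show that a factor binds there.

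Vamp1, Syt10 and Cplx1 were lower in crushed eyes, with differences from -1.32 to -0.98 on the log2 scale, and were the only 3 of the 72 rows to pass an adjusted p of 0.05 in limma with Benjamini-Hochberg adjustment over all 14194 rows. By that test 23 rows of all 14194 were lower, or 0.162%. No member was higher by it (7 were at an unadjusted p under 0.05), against 27 rows or 0.19% of all. At an unadjusted p under 0.05, 22 members were lower, beside 10.8% of all rows, and the 7 that were higher stand beside 8.81%. In bulk RNA of this kind, fewer cells of a type and less RNA per cell cannot be told apart.

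Vamp1 encodes synaptobrevin 1, a v-SNARE of vesicles that in mice serves the neuromuscular junction and fast brainstem and spinal circuits. The gene lies at chr6:125215581-125222306, plus strand, in the deposited table. Its control values were 0.28 in pool 914/92, -0.02 in 938/88, 0.03 in 976/978 and 0.00 in 981/982. Its ONC values were -1.36 in pool 913/986, -0.96 in 914/92, -1.39 in 938/88, -1.18 in 976/978 and -1.34 in 981/982. Every ONC library lay well below every control. The mean was 0.07 ± 0.14 (SD, n = 4) in Control and -1.24 ± 0.18 (SD, n = 5) in ONC. The limma difference was -1.32 ± 0.17 (SE), or 2.49-fold lower, with an adjusted p of 0.0282. Within pools, ONC minus Control was -1.23, -1.37, -1.20 and -1.34 in 914/92, 938/88, 976/978 and 981/982, so the fall was nearly the same size in each.

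Syt10 encodes synaptotagmin 10, a calcium sensor known in mouse olfactory neurons for secretion of IGF-1 from vesicles other than synaptic ones. It lies at chr15:89782393-89841860, minus strand. Control values were 0.00, 0.01, 0.38 and -0.12 in pools 914/92, 938/88, 976/978 and 981/982. ONC values were -0.99, -0.67, -0.93, -1.16 and -1.0 in pools 913/986, 914/92, 938/88, 976/978 and 981/982. The groups did not overlap, and the smallest change from the usual control level was in ONC 914/92. The means were 0.07 ± 0.22 (SD, n = 4) and -0.95 ± 0.18 (SD, n = 5), and the limma difference was -1.02 ± 0.15 (SE), 2.02-fold lower, with an adjusted p of 0.0469.

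Cplx1 encodes complexin 1, which binds the assembled SNARE complex and is the complexin of conventional synapses in the mouse retina along with complexin 2. It lies at chr5:108518554-108550027, minus strand. Control values were 0.19, 0.02, 0.00 and -0.19 in the same order of pools. ONC values were -0.83, -0.87, -0.93, -1.32 and -0.92, again starting with pool 913/986. The groups did not overlap, and ONC 976/978 was the lowest library. The means were 0.01 ± 0.15 (SD, n = 4) and -0.97 ± 0.20 (SD, n = 5), and the limma difference was -0.98 ± 0.15 (SE), 1.97-fold lower, with an adjusted p of 0.0483.

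The sizes of these 3 differences hardly depended on any one library, while their calls did. Without any single library the difference of Vamp1 ran from -1.39 to -1.25, that of Syt10 from -1.09 to -0.91 and that of Cplx1 from -1.04 to -0.89. Without the Y-low ONC libraries the differences were -1.37, -1.10 and -1.06, as large as with them, and the adjusted p-values were 0.128, 0.133 and 0.133 in limma, past the threshold for none. With the replicate block for animal pool the adjusted p-values were 0.0801 for Vamp1, 0.0876 for Syt10 and 0.0801 for Cplx1, and 0 of 14194 rows (0%) passed 0.05 in that limma fit, with 25.2% of rows at an unadjusted p under 0.05. With the block and no variance trend 4 members passed (Vamp1, Cplx1, Pclo and Stxbp5l), beside 0.43% of all rows lower, and with neither block nor trend the 3 genes above did, beside 0.648%. With 1 library left out, for which the share of all rows passing is not given here, all 3 passed without ONC 981/982. Syt10 and Vamp1 passed without ONC 914/92, and none of the 3 passed without any other single library. None passed with quantile normalization or with rows limited to those filtered in both conditions. At a threshold of 0.10 in the fit first described Syn2 joined them, beside 1.05% of all rows lower.

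Most markers of retinal ganglion cells moved in the direction of these 3 genes. The median over 17 such markers was 0.08, 0.02, 0.00 and -0.21 in the 4 controls and -0.65, -0.97, -0.68, -1.04 and -0.68 in the 5 ONC libraries, in the order used above. Their summed log2 values ran from -3.6 to 1.84 in Control and from -17.2 to -11.5 in ONC. Of the 17, 2 were lower at an adjusted p of 0.05 (Sncg and Rbpms2), beside 0.162% of all rows. In 9 the groups did not overlap, beside 4.44% of all rows lower without overlap, and none is listed without a value. The difference was below 0 in 16 and above 0 in 1, Slc17a6 (0.21), and it was small in Thy1 (-0.07) and Stmn2 (-0.02). The median of the 5 measured horizontal cell markers also separated the groups, at -0.16 to 0.15 in Control and -1.59, -1.68, -0.62, -1.26 and -0.26 in ONC. Their summed values were -1.3 to 1.07 and -8.34 to -1.99. The 5 did not move as one, and none passed the test in limma. The groups of Calb1 (-1.26, adjusted p 0.0782) and Onecut1 (-2.23, adjusted p 0.16) did not overlap, beside 4.44% of all rows lower without overlap. Those of Lhx1 (-0.67, adjusted p 0.437) and Onecut2 (-0.68, adjusted p 0.298) overlapped. Tpm3 was higher in ONC (0.43, adjusted p 0.143), also with overlapping groups. The 13 amacrine markers had a median difference of -0.27 and none passed; their medians of -0.30 to 0.20 in Control overlapped those of -0.69 to 0.04 in ONC, with summed values of -3.08 to 2.26 and -6.77 to 1.09. The part of these cells in the result for Vamp1, Syt10 and Cplx1 was not tested.

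**Figure D1:**
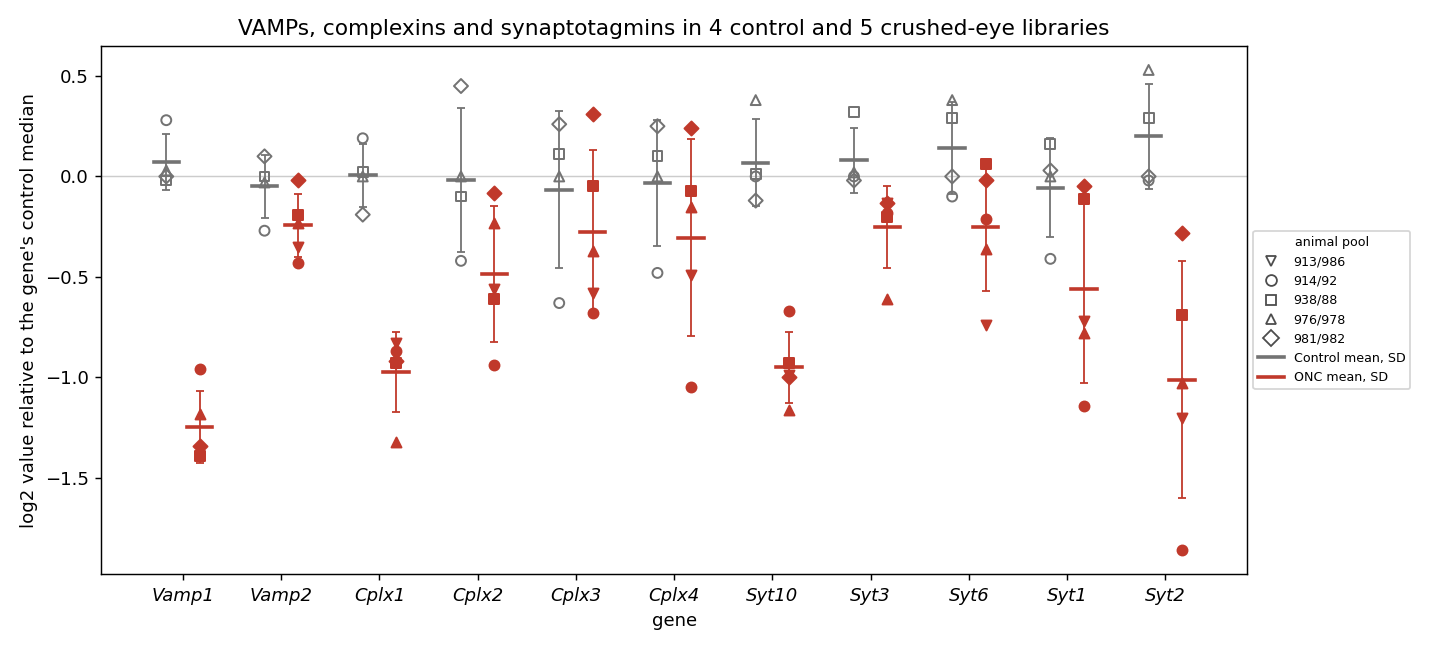
Log2 value, labelled as relative to the gene's control median (vertical axis), for 11 VAMP, complexin and synaptotagmin genes. Each of 4 control libraries has 1 open grey symbol and each of 5 ONC libraries 1 filled red symbol, shaped by animal pool. Horizontal bars are means and whiskers are SD. The 5 ONC libraries of Vamp1 lie between -1.39 and -0.96 and those of Cplx1 between -1.32 and -0.83, below every control, while those of Vamp2 lie between -0.43 and -0.02 and overlap the controls.

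Among the exocytic SNAREs of neurons, all 6 measured rows had a difference below 0, with a median of -0.39. Of these, 1 (Vamp1) passed the test, beside 0.162% of all rows lower. Vamp2, the synaptobrevin of most forebrain and retinal synapses, was -0.27, 0.00, -0.03 and 0.10 in Control and -0.35, -0.43, -0.19, -0.23 and -0.02 in ONC. The groups overlapped, and the difference of -0.20 had an adjusted p of 0.353 in limma. Snap25, the t-SNARE of nerve terminals that gives the family its name, differed by -0.43 ± 0.12 (SE) with an adjusted p of 0.136, and its groups overlapped only through Control 914/92 at -0.26 and ONC 981/982 at -0.23.

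The syntaxins of this group had wider errors. Stx1a, a syntaxin of conventional synapses, was -0.31, 0.42, -0.13 and 0.59 in Control and -0.24, -0.21, 0.15, -0.59 and 0.22 in ONC. The groups overlapped, and the difference was -0.27 (adjusted p 0.5). Stx3, the syntaxin of ribbon synapses, differed by -0.35 (adjusted p 0.464).

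Complexins 3 and 4 belong to the ribbon synapses of the mouse retina, and complexins 1 and 2 do not. All 4 had differences below 0. Cplx2 was -0.42, -0.10, 0.00 and 0.45 in Control and -0.56, -0.94, -0.61, -0.23 and -0.08 in ONC, a difference of -0.47 with an adjusted p of 0.267. Cplx3 and Cplx4 differed by -0.21 (adjusted p 0.627) and -0.27 (adjusted p 0.547), and stood at 0.03 and 0.04 without the Y-low ONC libraries. Their values in the 5 ONC libraries ran from -0.68 to 0.31 for Cplx3 and from -1.05 to 0.24 for Cplx4, beside -0.63 to 0.26 and -0.48 to 0.25 in Control, so that the groups overlapped. Of the 4 complexins, 1 (Cplx1) passed the test, beside 0.162% of all rows lower. Cplx2 and Cplx4 were lower in ONC in all 4 pools without passing, and Cplx3 was lower in 3 of the 4.

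Whether paralogs differed from each other was tested on 8 pairs, of which 7 are described, by the value of one gene minus that of its paralog in each library, with an exact two-sided permutation test whose smallest possible p is 0.0159 and Benjamini-Hochberg adjustment over the 8. Vamp1 minus Vamp2 was 0.55, -0.02, 0.06 and -0.10 in Control and -1.01, -0.53, -1.20, -0.95 and -1.32 in ONC. The groups did not overlap; the difference was -1.12 (exact p 0.0159, adjusted p 0.0635). Syt1 minus Syt2 was -0.40, -0.13, -0.53 and 0.03 in Control and 0.49, 0.72, 0.58, 0.25 and 0.23 in ONC, again with no overlap, a difference of 0.71 with the same p-values.

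None of the 8 pairs passed 0.05 after adjustment. Unc13a minus Unc13b differed by -0.47 (exact p 0.0317, adjusted p 0.0847). Bsn minus Pclo differed by 0.32 (exact p 0.0635, adjusted p 0.127). Cplx1 minus Cplx2 differed by -0.51 with overlapping groups (exact p 0.159, adjusted p 0.212). Syn1 minus Syn2 (0.10, exact p 0.571, adjusted p 0.653) and Sv2a minus Sv2b (0.02, exact p 0.905, adjusted p 0.905) had the smallest differences, each under 1 SD of the pair within either group. Within the 4 animal pools the change of Cplx1 minus Cplx2 was -0.54, -0.43, -1.09 and -0.21 in 914/92, 938/88, 976/978 and 981/982, of one sign in all, and that of Vamp1 minus Vamp2, Syt1 minus Syt2, Unc13a minus Unc13b and Bsn minus Pclo was also of one sign in all 4. An exact two-sided sign-flip permutation test over the pools gave p = 0.125 for each of these 5 pairs, which is the smallest p that 4 pools allow.

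The 16 synaptotagmins split in direction, with 12 differences below 0 and 4 above and a median of -0.23. Of these, 1 gene (Syt10) passed the test, beside 0.162% of all rows lower. Syt2 encodes the fast calcium sensor of brainstem, spinal and some retinal terminals. It was -0.02, 0.29, 0.53 and 0.00 in Control and -1.20, -1.86, -0.69, -1.03 and -0.28 in ONC. The groups did not overlap, but ONC values spread widely, and the difference of -1.21 ± 0.29 (SE) had an adjusted p of 0.102. Syt1, the main fast sensor of forebrain synapses, differed by -0.51 with an adjusted p of 0.275 and overlapping groups. Syt3, a high-affinity sensor, was the remaining synaptotagmin whose groups did not overlap, by a small margin (highest ONC -0.13, lowest control -0.02), with a difference of -0.33 and an adjusted p of 0.208.

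Of the synaptotagmins with a difference above 0, 3 had an unadjusted p under 0.05 and none passed the adjusted threshold. Syt4, a synaptotagmin of dense-core vesicles, was -0.15, 0.29, 0.15 and 0.00 in Control and 0.62, 0.47, 0.65, 0.22 and 0.69 in ONC. Only ONC 976/978 lay within the range of the controls, and the difference was 0.46 ± 0.13 (SE) with an adjusted p of 0.135. Syt11, which does not bind calcium and acts in membrane retrieval, and Syt12, a vesicle protein without calcium binding, differed by 0.49 (adjusted p 0.219) and 0.53 (adjusted p 0.211). The groups of both overlapped.

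**Figure D2:**
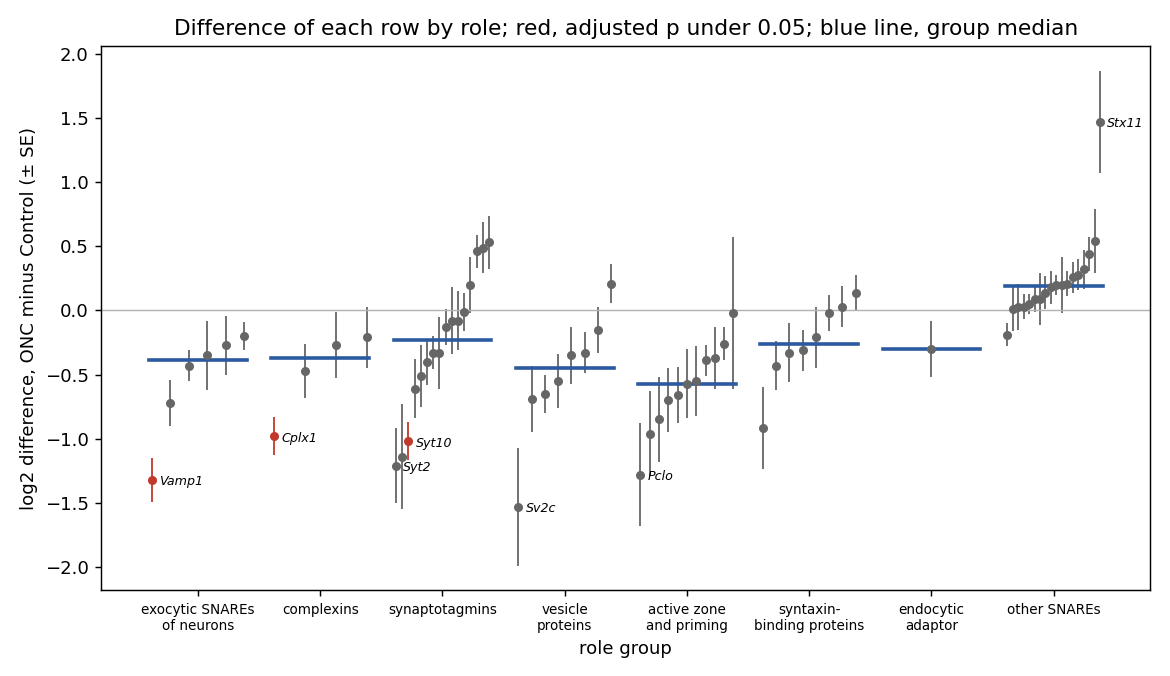
Log2 difference, ONC minus Control, with its SE (vertical axis), for each of the 72 rows, grouped by role and ordered within a group; red marks the 3 rows at an adjusted p under 0.05 and blue bars are group medians. The medians of the groups run from -0.57 for active zone and priming to 0.19 for the other SNAREs.

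Of the 8 vesicle proteins, 7 had differences below 0, the median was -0.45, and none passed the test. Sv2c, a rare member of the SV2 glycoprotein family, had the largest difference of all members, -1.53 ± 0.46 (SE), with an adjusted p of 0.142. Its controls were -0.41, 0.00, 0.34 and 0.36 and its ONC values -1.13, -3.05, -1.0, -1.20 and -0.92. The groups did not overlap, but ONC 914/92 alone was far below the rest. Without pool 914/92 the difference was -1.30 with an adjusted p of 0.0369 in limma, and it was then the single member to pass, beside 0.0211% of all rows lower.

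Synapsins tether vesicles to one another in the reserve pool. Syn2 was -0.14, 0.05, 0.00 and 0.04 in Control and -0.77, -0.78, -0.28, -0.95 and -0.54 in ONC. These groups did not overlap, and the difference of -0.65 ± 0.15 (SE) had an adjusted p of 0.084. Syn1 differed by -0.55 (adjusted p 0.198) and Syn3 by -0.69 (adjusted p 0.194). Each synapsin gene holds a gene of the TIMP family on the opposite strand within it, and the strand of the counting is not given in the sources used here, so reads of the 2 genes may have been mixed. Timp1, inside Syn1, differed by 3.07 ± 1.00 (SE) (adjusted p 0.16), Timp4, inside Syn2, by 0.60 (adjusted p 0.364), and Timp3, inside Syn3, by -0.10 (adjusted p 0.546).

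The remaining vesicle proteins had smaller differences. Sv2a, the SV2 protein found at most synapses, differed by -0.33 (adjusted p 0.279) and Sv2b, which ribbon synapses also carry, by -0.35 (adjusted p 0.372). Syp, synaptophysin, the abundant vesicle protein often used to stain synapses, was -0.52, 0.00, -0.02 and 0.02 in Control and -0.44, -0.65, -0.11, -0.27 and 0.10 in ONC. The groups overlapped in full apart from ONC 914/92 and ONC 981/982 at the ends, and the difference was -0.15 with an adjusted p of 0.643. The single vesicle protein with a difference above 0 was Sypl, a relative of synaptophysin found outside neurons too, at 0.21 (adjusted p 0.429).

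Active zone and priming genes had the lowest median of the role groups, -0.57, with all 11 rows (10 genes) below 0 and none past the test. Piccolo (Pclo), a giant scaffold of the release site, was -0.64, 0.00, 0.57 and 0.95 in Control and -1.61, -1.89, -0.77, -0.66 and -0.36 in ONC. Bassoon (Bsn), its partner that anchors the ribbon, was -0.58, 0.00, 0.35 and 0.59 in Control and -1.27, -1.58, -0.47, -0.85 and -0.18 in ONC. In both genes Control 914/92 lay among the ONC libraries and the other 3 controls lay above all of them.

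The differences were -1.28 ± 0.40 (SE) for Pclo (adjusted p 0.153) and -0.96 ± 0.33 (SE) for Bsn (adjusted p 0.172). Unc13a, the main Munc13 priming factor, differed by -0.85 ± 0.33 (SE) (adjusted p 0.213). Rims1, a RIM protein that links vesicles to calcium channels, differed by -0.57 (adjusted p 0.277) at chr1:22288422-22432843 and by -0.39 (adjusted p 0.153) at chr1:22468191-22805724. These 2 rows of 1 gene are not independent, and neither passed. Unc13d, a priming factor known from blood cells, had passed the filter in 1 condition and spread from -1.99 to 1.04 in ONC with a difference of -0.02.

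Of the 8 syntaxin-binding proteins, 6 had differences below 0 and none passed, with a median of -0.26. The largest difference of the group was that of Stxbp5l, tomosyn-2, an inhibitor of SNARE assembly, at -0.92 ± 0.32 (SE) with an adjusted p of 0.176. Stxbp3a and Stxbp3b are close copies between which counting may have split reads, so their values (-0.02 and -0.21) are uncertain. Snap91 is AP180, an adaptor of clathrin that retrieves vesicles and shares only its symbol with the SNAREs, and it differed by -0.30 (adjusted p 0.44).

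The 18 other SNAREs, those of general membrane traffic, stood on the opposite side. Of these, 17 had a difference above 0 and 1, Stx17 of autophagosomes, below. The median was 0.19 and none passed the test. Stx6, a syntaxin of the trans-Golgi network, was 0.00, 0.00, -0.005 and -0.04 in Control and 0.24, 0.34, 0.07, 0.20 and 0.12 in ONC. Vamp8, a v-SNARE of endosomes and secretory granules, was 0.00, 0.03, -0.13 and -0.19 in Control and 0.57, 0.52, 0.11, 0.58 and 0.09 in ONC. In both genes every ONC library lay above every control, and the differences of 0.20 and 0.44 had adjusted p-values of 0.219 and 0.145.

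The largest difference of the other SNAREs was that of Stx11, a syntaxin of immune cells in which it serves granule release, and it rests on a gene that passed the filter in 1 condition. It was 1.72, 0.00, -0.44 and 0.73 in Control and 2.21, 1.75, 1.66, 2.14 and 2.10 in ONC. Control 914/92 lay within the ONC range, and the difference was 1.47 ± 0.40 (SE), or 2.76-fold, with an adjusted p of 0.127. Of 15 microglia and macrophage markers, 1 passed the test, Cd68, which was higher, beside 0.19% of all rows. The list's median was -0.07 to 0.00 in Control and 0.28 to 2.57 in ONC. The summed log2 values of that list ran from -0.2 to 5.41 in Control and from 7.52 to 37.6 in ONC, lowest in ONC 914/92. Its part in the values of Stx11 was not tested. Stx4a, of the plasma membrane, and Vamp5, of muscle and other non-neuronal membranes, differed by 0.28 (adjusted p 0.236) and 0.54 (adjusted p 0.263) with overlapping groups.

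Across all members, 48 of 72 rows had a difference below 0, beside 50.1% of all rows, and the median difference was -0.27, beside -0.001 over all rows. Leaving aside the other SNAREs, 47 of 54 rows were below 0 with a median of -0.35. In 8 rows, among them Cplx1, Sv2c, Syn2, Syt10, Syt2, Syt3 and Vamp1, every ONC library lay below every control, beside 4.44% of all rows, and in 2 (Stx6 and Vamp8) every one lay above, beside 3.39% of all rows. In 30 rows (41.7%) ONC was lower than Control in all 4 pools, beside 19% of all rows, and in 13 (18.1%) higher, beside 17.9%. These are descriptions, since the members share libraries and were not drawn at random.

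**Figure D3:**
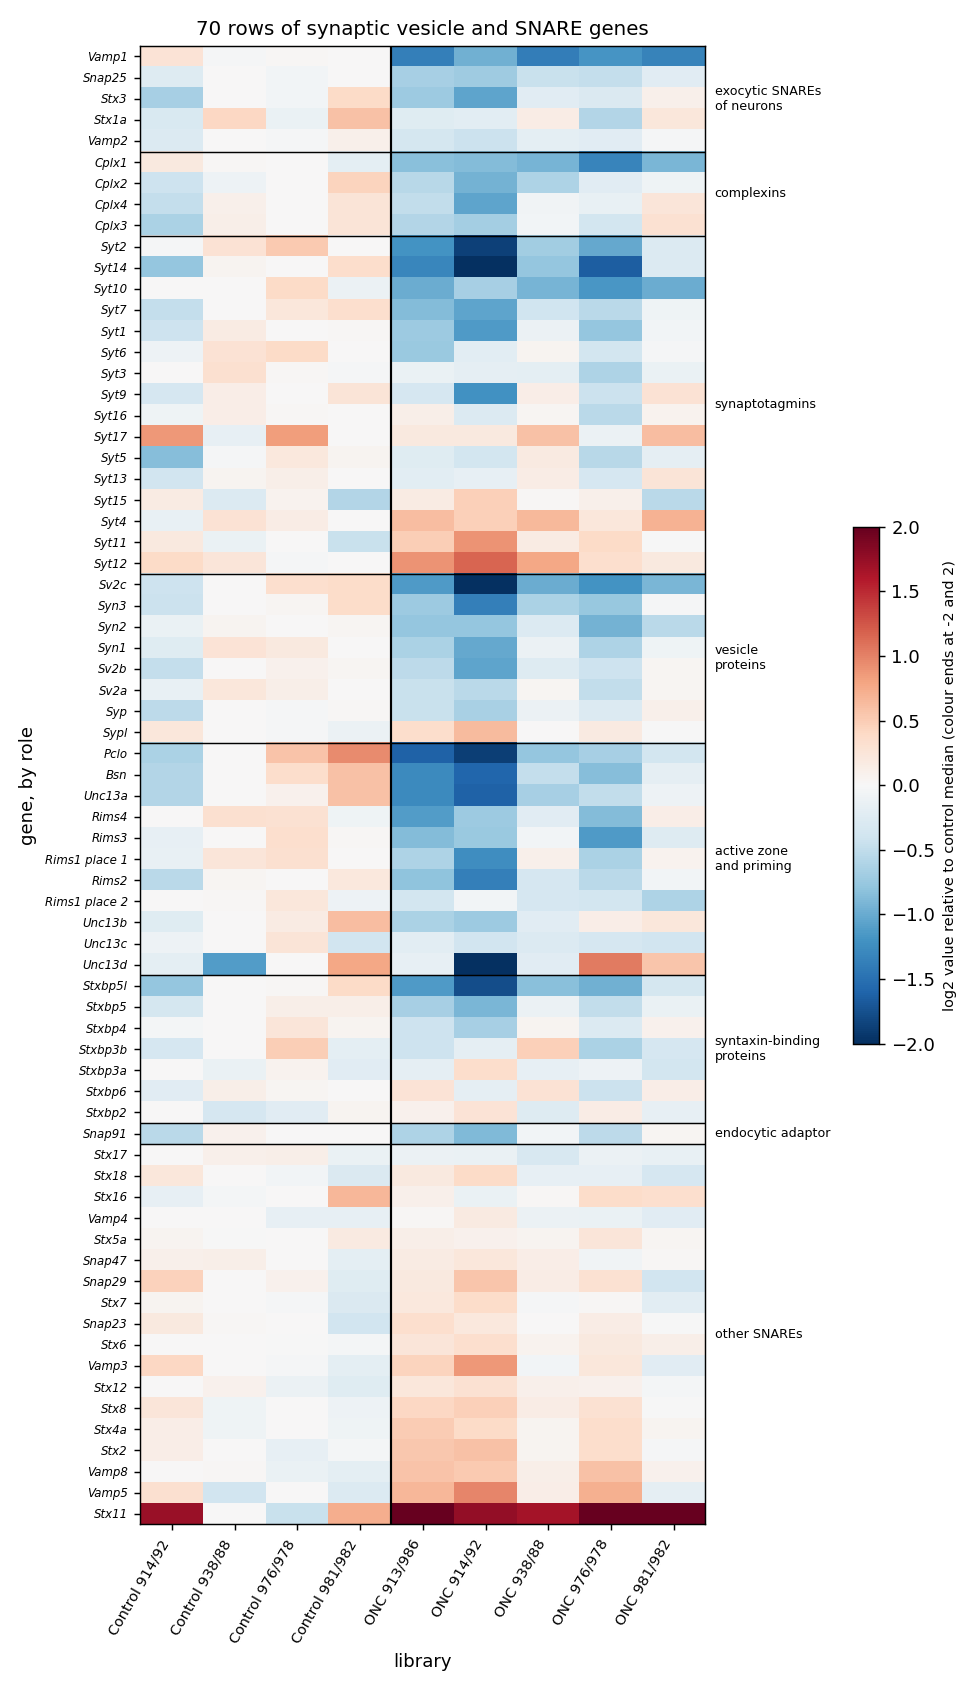
Log2 value, labelled as relative to the control median (colour, ending at -2 and 2), of 70 of the 72 rows (vertical). The 4 control and 5 ONC libraries are horizontal, and rows are ordered by role and by difference. Vamp1, Cplx1 and Syt10 are blue in every ONC library, whereas among the 54 rows other than the other SNAREs ONC 914/92 was the lowest ONC library in 31 and ONC 981/982 the highest in 32.

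Libraries of pool 914/92 set much of the spread within groups. Control 914/92 was the lowest control in 39 of the 54 rows other than the other SNAREs (72.2%), beside 33.4% of all rows, and the highest control in 12 of the 18 other SNAREs. ONC 914/92 was the lowest ONC library in 31 of the 54 (57.4%), beside 30.8% of all rows, and ONC 981/982 the highest in 32. Without pool 914/92, 22 members were below every control and 4 above, beside 11.3% and 9.6% of all rows. With Control 914/92 alone left out the counts were 21 and 4, beside 10.6% and 8.49% of all rows, so the share of all rows rose with the members' counts.

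Markers of other retinal neurons and of glia moved with these values between libraries. The median over 17 rod and cone markers was -0.63 in Control 914/92 and -0.03 to 0.24 in the other controls, and it was -0.79, -1.09, -0.24, -0.09 and 0.10 in the ONC libraries. That over 12 bipolar markers was -0.48 in Control 914/92 and -0.51, -0.89, -0.14, -0.38 and 0.08 in ONC. For comparison, the 6 exocytic SNAREs of neurons had library medians of -0.27, 0.00, -0.04 and 0.05 in Control and -0.68, -0.81, -0.25, -0.53 and -0.12 in ONC. The other SNAREs and the 16 Müller glia markers went the other way, both with their highest value in ONC 914/92 (0.38 and 0.49) and their lowest control in 981/982 (-0.18 and -0.47). The summed log2 values ran from -11 to 10.5 in Control and -19.3 to 3.19 in ONC for rod and cone markers, from -6.28 to 2.03 and -9.6 to 1.65 for bipolar markers, and from -7.41 to 4.75 and -3.39 to 8.76 for Müller glia markers. Of 6 astrocyte markers, 3 had a difference below 0 and 3 above, with a median of -0.01. Among them Aldh1l1, whose promoter marks the labelled cells, differed by 0.68 ± 0.23 (SE) with an adjusted p of 0.166 in limma and overlapping groups. Gfap differed by 1.80 ± 0.56 (SE) with an adjusted p of 0.153. None of the rod and cone, bipolar, Müller glia or astrocyte markers passed the test between groups. The part of these cell types, and of Aldh1l1, in the members' values was not tested.

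**Figure D4:**
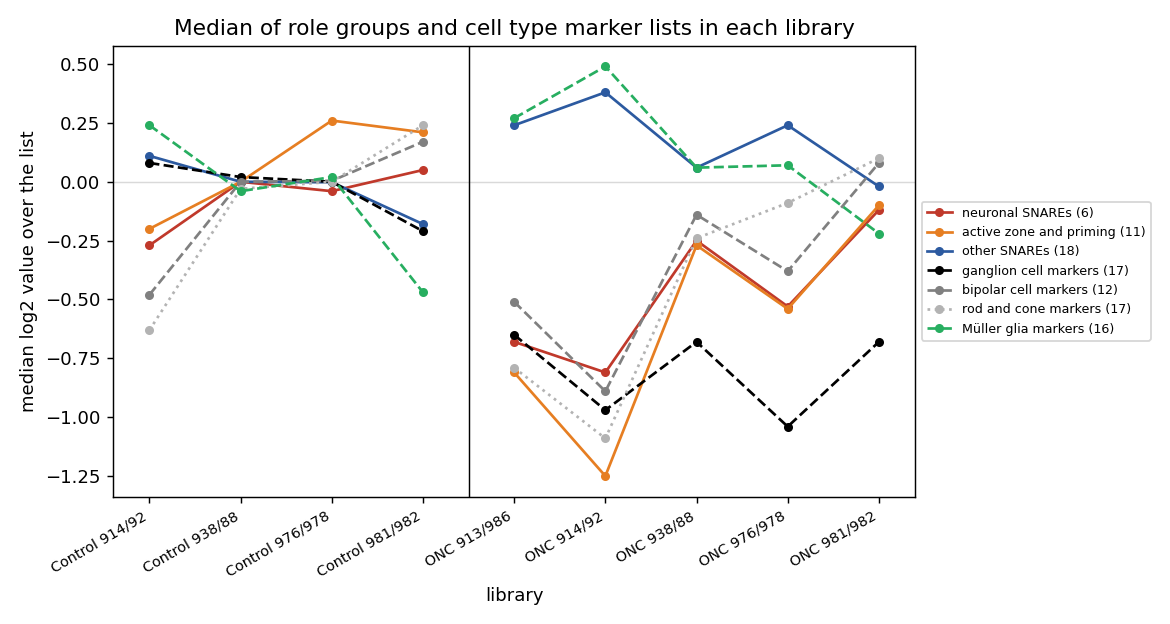
Median log2 value over 3 role groups of members and 4 lists of cell type markers (vertical axis) in each of the 9 libraries (horizontal axis), where lines only join the points of a list and the number of rows is in brackets. The ganglion cell markers lie at -0.65 or lower in every ONC library, while the active zone genes and the rod and cone markers range from -1.25 to -0.10 and from -1.09 to 0.10 there.

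The Y-low ONC libraries also carried part of the shift of the whole gene group. Without them the median difference over all members was -0.11, with 48 of 72 rows below 0. Then 9 members lay below every control and 2 above, beside 5.89% and 4.95% of all rows. The complexins were then divided, with 2 of 4 below 0. The median of active zone and priming genes was -0.44, that of the exocytic SNAREs -0.26 and that of the other SNAREs 0.11, with 12 of 18 above 0.

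Beyond the members, 53 other genes of the presynaptic terminal were measured, and 45 of these had differences below 0 with a median of -0.36. Of the 53, 1 was lower at an adjusted p of 0.05, beside 0.162% of all rows, and none was higher, beside 0.19%. At an unadjusted p under 0.05 the counts were 21 lower and 0 higher, beside 10.8% and 8.81% of all rows. The gene that passed was Sncg, γ-synuclein, which is also a marker of ganglion cells. It lay from -0.16 to 0.10 in Control and from -1.51 to -1.16 in ONC, a difference of -1.33 ± 0.20 (SE), 2.51-fold, with an adjusted p of 0.0469. Rph3a, rabphilin, a partner of the vesicle GTPase Rab3, differed by -1.19 ± 0.29 (SE) (adjusted p 0.102), Apba1, the presynaptic adaptor Mint1, by -0.58 ± 0.14 (SE) (adjusted p 0.101), and Rab3c, a Rab3 GTPase, by -0.64 ± 0.20 (SE) (adjusted p 0.147). In 3 of the 53, Sncg, Rph3a and Apba1, every ONC library lay below every control, beside 4.44% of all rows. The groups of Rab3c overlapped.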

How the data were processed

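Ribosome-bound RNA of pulled-down retinal cells was sequenced in 9 libraries, 5 ONC and 4 Control, grouped by the treatment label. The deposited values were normalized by the authors, per the file headers, which name no scale; that they are log2 and centred on each gene's control median was taken from the values themselves, since 93.2% of rows have a control at exactly 0. Per the file headers, raw values from 5 to 298892.188 were required in 100% of libraries in 1 or both of the 2 conditions, and the deposited column of conditions passed was used for that filter. The submitters' processing notes name mm10 and DESeq, with no version; no aligner or counter is given in the sources used here. The values hold no counts, so library depth is unknown. No 2 libraries shared more than 0.0564% of their values.

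The whole table was fitted with limma 3.58.1 in R 4.3.3 (ONC against Control, variance trend, no block) on the log2 values, with two-sided p-values adjusted by Benjamini-Hochberg over 14194 rows and a threshold of 0.05, after the script was tested on simulated data. The trend follows the mean of centred values, which carries no expression level, so a fit without it was run beside it. Paralog pairs were compared with an exact permutation test in scipy 1.17.1, and figures were drawn with matplotlib 3.10.9. Animal numbers in the labels pair the fellow eyes of 4 pools. The correlation of paired libraries' deviations across rows was 0.38 for 914/92, 0.18 for 938/88, -0.06 for 976/978 and 0.45 for 981/982, and the Y-linked values put the pair of 914/92 in doubt. Genes named are the members past the threshold, the 8 with the smallest p in each direction, a fixed set of well-known members, and of the other presynaptic genes those past the threshold and the 4 with the smallest p; Syt3, Syn3, Sv2b, Sypl, Stx17, Stxbp3a, Stxbp3b, Stxbp5l, Snap91, Unc13b and Unc13d were named after their values were seen. The members and lists were chosen with earlier results of these data known. Values of single members are not reported here for 2 members, which stay in the fits and in the counts of their groups. Stxbp3b was added to the syntaxin-binding proteins after the symbols were seen. The alternatives were a block for animal pool with and without the trend, no trend, quantile normalization, median centring, the filter in both conditions, a threshold of 0.10, and leaving out single libraries, pool 914/92 or the Y-low ONC libraries; counts of rows without overlap and role medians under these, and the paralog pairs within animal pools, were added after seeing the data.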

Additional observations from a re-analysis of the deposited data

Results flagged for a closer look

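In 5 of 60 groups looked at (30 named members in 2 groups each), 1 library lay apart from the others of its group by more than Dixon's critical value, and chance alone would flag about 1 in 20 such groups. Vamp1 was 0.28 in Control 914/92, with the nearest control at 0.03, so this control lay on the far side from the ONC libraries. Cplx1 was -1.32 in ONC 976/978, the nearest ONC library being at -0.93. Sv2c was -3.05 in ONC 914/92, with the nearest at -1.20, and this is the library that widens its error. Syp was -0.52 in Control 914/92, with the nearest control at -0.02. Stx6 was -0.04 in Control 981/982, where the nearest control was -0.005, a gap too small to bear on its difference. Of the 5, 3 fall in pool 914/92, whose eyes did not match in Y-linked RNA; the part of that mismatch in these values was not tested.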

How the results depend on the processing

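The count of 3 members called lower varied with the processing. It was 0 with the replicate block for animal pool (paired by the labels) and with quantile normalization. With the block, 25 members were lower and 8 higher at an unadjusted p under 0.05 in limma, beside 25.2% of all rows in either direction. The count was also 0 with the filter passed in both conditions and without the Y-low ONC libraries. Without pool 914/92 it was 1 (Sv2c), beside 0.0211% of all rows lower. With the replicate block and no trend it was 4 (Vamp1, Cplx1, Pclo at -1.14 with an adjusted p of 0.0379 in limma, and Stxbp5l), and without a trend again Vamp1, Syt10 and Cplx1. Leaving out 1 library gave 0 to 3 calls: 3 without ONC 981/982, 2 (Syt10 and Vamp1) without ONC 914/92 and 0 without any other library. Median centring kept Syt10 and Vamp1. For median centring and for the fits without 1 library, the share of all rows passing is not given here. Over all alternatives the adjusted p ran from 0.00137 to 0.148 for Vamp1, from 0.0102 to 0.175 for Syt10 and from 0.00885 to 0.175 for Cplx1, and all 3 kept their direction. At a threshold of 0.10, Syn2 (-0.65, adjusted p 0.084) was also called. The 8 members below every control became 22 without pool 914/92 (all rows from 4.44% to 11.3%) and 8 to 21 with 1 library left out (21 without Control 914/92 with 10.6% of all rows, 14 without ONC 981/982 with 7.05%). The 2 members above every control became 1 with quantile normalization (all rows from 3.39% to 1.28%), 4 without pool 914/92 (9.6%) and 2 to 4 with 1 library left out. The median difference was -0.11 without the Y-low ONC libraries and -0.35 to -0.18 with 1 library left out, and in that first setting Cplx4 (0.04), Cplx3 (0.03) and Syp (0.04) changed direction. Sv2c passed the threshold without pool 914/92 (-1.30, adjusted p 0.0369). Of the 54 values of Vamp1, Syt10 and Cplx1 under the alternatives, 39 lost the call and 15 kept it. The 54 include the threshold of 0.10, at which these 3 genes, already past 0.05, could not lose the call. Of 485 values of named members that were not called, 479 kept direction and side of the threshold, 3 gained a call and 3 changed direction. The causes of these changes were not tested, and the fits that left libraries out also had fewer of them. Without counts, what depth limits cannot be stated.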
